A study of Homo sapiens with 12 samples.

Results

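Du145-CbzR, a cabazitaxel-resistant derivative of the prostate cancer line Du145, was compared gene by gene with its parental cells, Du145-P. The members are the 2 libraries of Du145-CbzR and the 2 of Du145-P, out of 12 libraries in the series, and the 18218 genes with enough counts for a test, out of 60616 in the table. Genes of distal 7q were described apart from the rest: 445 tested genes of chromosome 7 whose annotated start lies beyond the end of ABCB1 towards the q telomere, against 17773 tested genes elsewhere. Du145-CbzR cells survived exposures of 72 h to cabazitaxel whose dose was doubled step by step, starting at 1 nM and ending at 125 nM, with recovery between exposures. Du145-DtxR was selected with docetaxel in the same way and entered the fit with 2 libraries of its own. The control was Du145-P, parental cells grown over the same period with no drug. Each resistant line is 1 derived line, whether it is a single clone is not given in the sources used here, and the 2 libraries of a line are described by the study as biological replicates. The p-values therefore measure the spread between libraries of a line and not between independently selected lines.

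Cabazitaxel and docetaxel are taxanes, which bind beta-tubulin, stabilize microtubules and arrest cells in mitosis. ABCB1 encodes P-glycoprotein, an efflux pump of the plasma membrane that carries taxanes out of the cell, and cabazitaxel was developed as a taxane that this pump handles poorly. The gene lies in band 7q21, with its close relative ABCB4 beside it, and the long arm of chromosome 7 beyond it holds the receptor kinase gene MET, the cell cycle kinase gene CDK6 and the histone methyltransferase gene EZH2.

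Each library held 27512422 to 30593573 estimated counts, and levels are given as CPM, counts scaled to a common library size. Transcripts of the mitochondrial genome took 12.1% and 12.7% of the counts in Du145-CbzR, against 14.3% and 15.3% in Du145-P. Across genes, log2 CPM correlated at r = 0.9916 between the Du145-CbzR libraries and 0.9897 between the Du145-P libraries, and at 0.9552 to 0.9577 between the lines. The epithelial markers EPCAM, KRT8, KRT18, KRT19 and CDH1 summed to 448.2 and 458.1 CPM in Du145-CbzR and to 424.2 and 447.8 CPM in Du145-P, while CDH1, which encodes E-cadherin, stood at 0.75 and 0.68 CPM against 38.9 and 34.8 CPM. KLK2, a marker of luminal prostate cells, had no counts in these 4 libraries. Immune markers summed to under 1 CPM in every library. Fibroblast markers summed to 27.1 and 26.7 CPM in Du145-CbzR and 22.4 and 23.9 CPM in Du145-P, mostly from the collagen genes COL3A1, with 18.69 and 17.15 CPM against 10.74 and 11.14 CPM, and COL1A1, with 7.85 and 8.64 CPM against 11.04 and 12.04 CPM. DCN and LUM had at most 0.033 CPM, and the part of these markers in the results was not tested.

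A differentially expressed gene (DEG) had to differ by more than 1 on the log2 scale, in either direction, and to reach an adjusted p below 0.05 in edgeR's quasi-likelihood test, with Benjamini-Hochberg adjustment over all genes tested. In Du145-CbzR 682 genes were higher (3.74% of those tested) and 1435 were lower (7.88%) than in Du145-P. Without the fold limit 4454 genes were higher (24.4%) and 4790 lower (26.3%), and a gene named below as higher or lower passed this test. Distal 7q held 2.44% of the tested genes, 0.44% of the DEGs that were higher and 14.98% of the DEGs that were lower.

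ABCB1 had 2807 and 2721 CPM in Du145-CbzR and 454.2 and 453.8 CPM in Du145-DtxR, against 0.227 and 0.464 CPM in Du145-P. The log2 fold change of Du145-CbzR over Du145-P was 12.95 ± 0.11 (SE; adjusted p = 7.28e-15, edgeR), and the level was also higher than in Du145-DtxR, by 2.61 on the log2 scale (adjusted p = 7.44e-12, edgeR). The gene is annotated at chromosome 7, 87503017 to 87713323, on the minus strand of GRCh38. Its tested neighbours within 2 Mb on either side numbered 16. By annotated start, their direction changed between HNRNPA1P9 and RUNDC3B, which both start inside ABCB1. RUNDC3B had only 14 and 20 counts in Du145-CbzR, against 32 in each Du145-P library. The next gene, SLC25A40, lies beyond ABCB1.

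The 250 bases before the annotated starts of genes on both sides of this change are shown. They do not locate the change, whose position was not mapped. They are from RefSeq on GRCh38.p14, read 5′ to 3′ along the gene. Capitals mark 3 motifs on either strand: CCAAT, the GC box motif GGGCGG and the TATA box motif TATAAA. ABCB1 has 2 annotated starts, and the table holds gene totals, so it does not say which of them was used. RUNDC3B lies on the opposite strand and starts within ABCB1.
CROT, higher in Du145-CbzR, chr7:87345414-87345663, plus strand: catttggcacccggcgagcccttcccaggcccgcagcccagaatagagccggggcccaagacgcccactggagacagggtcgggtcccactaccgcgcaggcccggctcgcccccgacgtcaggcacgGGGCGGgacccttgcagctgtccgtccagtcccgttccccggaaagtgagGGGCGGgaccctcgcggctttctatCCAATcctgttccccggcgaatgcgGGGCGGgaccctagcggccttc
ABCB1, start nearer to CROT, chr7:87600885-87601134, minus strand: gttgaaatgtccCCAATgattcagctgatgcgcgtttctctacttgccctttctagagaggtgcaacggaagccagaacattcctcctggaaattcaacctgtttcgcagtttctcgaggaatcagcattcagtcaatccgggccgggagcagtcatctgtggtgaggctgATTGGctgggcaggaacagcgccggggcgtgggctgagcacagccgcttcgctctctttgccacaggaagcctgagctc
RUNDC3B, lower in Du145-CbzR, chr7:87628148-87628397, plus strand: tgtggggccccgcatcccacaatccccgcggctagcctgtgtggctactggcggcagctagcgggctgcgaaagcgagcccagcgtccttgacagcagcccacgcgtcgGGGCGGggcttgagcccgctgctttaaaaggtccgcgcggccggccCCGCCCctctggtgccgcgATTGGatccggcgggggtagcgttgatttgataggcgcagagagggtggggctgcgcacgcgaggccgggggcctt
ABCB1, start farther from CROT, chr7:87713296-87713545, minus strand: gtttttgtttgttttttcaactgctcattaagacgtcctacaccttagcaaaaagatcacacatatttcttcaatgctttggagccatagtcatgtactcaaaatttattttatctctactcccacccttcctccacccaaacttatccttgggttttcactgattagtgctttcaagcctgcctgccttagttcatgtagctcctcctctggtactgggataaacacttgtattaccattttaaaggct
SLC25A40, lower in Du145-CbzR, chr7:87876361-87876610, minus strand: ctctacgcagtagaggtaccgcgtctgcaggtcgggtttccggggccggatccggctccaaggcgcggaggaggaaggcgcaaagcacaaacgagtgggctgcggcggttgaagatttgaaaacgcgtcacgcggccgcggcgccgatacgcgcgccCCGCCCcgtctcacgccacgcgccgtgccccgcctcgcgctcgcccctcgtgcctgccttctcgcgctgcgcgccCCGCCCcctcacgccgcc
Of 35116 windows of this length in the RefSeq table, 32.0% held CCAAT, 42.6% held GGGCGG and 10.7% held TATAAA on either strand. The window of the farther ABCB1 start held none of them.

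On the centromeric side of ABCB1 every tested neighbour was higher in Du145-CbzR. CROT, which encodes a peroxisomal carnitine acyltransferase, had 64.5 and 64.0 CPM in Du145-CbzR and 11.6 and 10.97 CPM in Du145-DtxR, against 10.8 and 10.9 CPM in Du145-P (log2 fold change 2.57 ± 0.07, adjusted p = 1.55e-10, edgeR). DMTF1, a transcription factor gene of the ARF-p53 pathway, had 341.4 and 305.6 CPM in Du145-CbzR and 77.5 and 73.0 CPM in Du145-P. ELAPOR2, whose family acts in the endosome and lysosome system, had 344.6 and 332.3 CPM against 46.0 and 43.5 CPM. In Du145-DtxR, CROT and DMTF1 passed the test against Du145-P in neither direction and ELAPOR2 was lower, and Du145-CbzR was higher than Du145-DtxR in each, by 2.51 (CROT), 2.17 (DMTF1) and 3.71 (ELAPOR2) on the log2 scale. TMEM243 (log2 fold change 2.44) and the p53-induced noncoding RNA TP53TG1 (2.74) had similar changes. GRM3, a glutamate receptor gene, reached only 0.65 and 0.49 CPM, with 0.032 and 0 CPM in Du145-P. ABCB4, which encodes a phospholipid transporter of the bile canaliculus, had 7.496 and 6.43 CPM in Du145-CbzR and 0.44 and 0.22 CPM in Du145-DtxR, against 0.032 and 0.166 CPM in Du145-P. ABCB4 shares much of its sequence with ABCB1, and reads can be split between them. GRM3-AS1, DMTF1-AS1 and the pseudogene HNRNPA1P9, which lies inside ABCB1, were higher too, and whether the counting used strand is not given in the sources used here.

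On the telomeric side the direction was the other way. RUNDC3B had 0.45 and 0.65 CPM in Du145-CbzR and 4.41 and 4.39 CPM in Du145-DtxR, against 1.04 and 1.06 CPM in Du145-P, so that it was lower in Du145-CbzR (log2 fold change -0.92, adjusted p = 0.0173, edgeR) and higher in Du145-DtxR. SLC25A40, a carrier of the inner mitochondrial membrane, had 23.8 and 23.9 CPM in Du145-CbzR and 52.9 and 45.9 CPM in Du145-P. DBF4, the activating subunit of the replication kinase CDC7, had 30.0 and 30.7 CPM against 51.4 and 47.3 CPM. In both genes the lines did not overlap. ADAM22 (log2 fold change -1.51) and SRI (-0.76), which encodes the calcium-binding protein sorcin, were lower as well. STEAP4, a metalloreductase gene, had no counts in Du145-CbzR and 0.26 and 0.23 CPM in Du145-P, at least 5.05-fold lower.

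**Figure D1:**
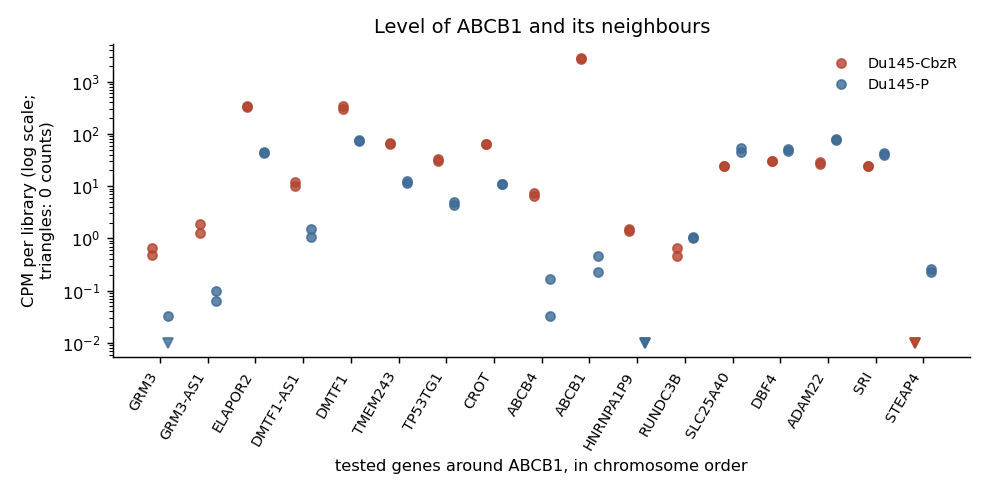
CPM of ABCB1 and its tested neighbours in chromosome order on a log axis, with each point 1 library of Du145-CbzR (left, red) or Du145-P (right, blue) and triangles for libraries with 0 counts. The red points lie above the blue ones from GRM3 to HNRNPA1P9 and below them from RUNDC3B to STEAP4.

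Beyond ABCB1 most of 7q was lower in Du145-CbzR. Of the 445 tested genes of distal 7q, 365 were lower (82.0%, against 26.3% of all tested genes), 7 were higher and 73 passed the test in neither direction. Their median log2 fold change was -1.02, a fold of 0.494, with quartiles of -1.29 and -0.73, while the median of the genes elsewhere was 0. Both Du145-CbzR libraries were below both Du145-P libraries in 404 of the 445 genes (90.8%, against 38.8% of all tested genes), and above them in 11 (against 37.3%). At the fold limit 215 were lower (48.3%) and 3 higher, against 1220 lower (6.86%) and 679 higher (3.82%) among the genes elsewhere. Lower RNA in a bulk library can come from fewer cells that express a gene or from less RNA per cell. These cannot be told apart here, and the libraries measure RNA alone. By qPCR of genomic DNA, the paper reports ABCB1 amplification in Du145-CbzR and in none of its other resistant lines. From its RNA data the paper also reports CROT, TMEM243, TP53TG1, ABCB4 and HNRNPA1P9, near ABCB1, as higher in Du145-CbzR. For Du145-DtxR it reports only RUNDC3B and HNRNPA1P9 of this group of neighbours as higher. Copy number of the other genes of 7q was not tested here.

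The median shift differed little with the level of the genes. The median log2 fold change was -1.067 in 77 distal 7q genes with a mean under 1 CPM, -1.021 in 136 genes at 1 to 10 CPM, -1.001 in 209 genes at 10 to 100 CPM and -1.016 in 23 genes above that. All 23 of the most abundant genes were lower, as were 205 of the 209 at 10 to 100 CPM. At the lowest levels 28 of the 77 were lower, 2 were higher and 47 passed the test in neither direction. The 343 protein-coding members had a median of -1.023 with 304 lower, and the 102 others had a median of -0.998 with 61 lower.

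The shift was even along the arm. Counted in steps of 10 Mb from the 5′ end of ABCB1 towards the telomere, the medians were -1.06, -1.04, -0.96, -1.17, -0.98, -0.88 and -1.01. The 10 Mb before that point, ABCB1 and its higher neighbours included, had a median of 2.44 with 21 of 23 genes higher, and the remaining steps towards the p telomere had medians between -0.18 and 0.20. The higher genes on this side included, in order towards ABCB1, the scaffold gene MAGI2 (log2 fold change 0.76), the G protein gene GNAI1 (1.57), and SEMA3C (1.17) and SEMA3D (2.75), which encode secreted guidance proteins. Among them SEMA3E, another secreted semaphorin gene, had 2.79 and 2.83 CPM in Du145-CbzR and 104.0 and 108.1 CPM in Du145-DtxR, against 117.6 and 113.1 CPM in Du145-P, which put it far below its neighbours.

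**Figure D2:**
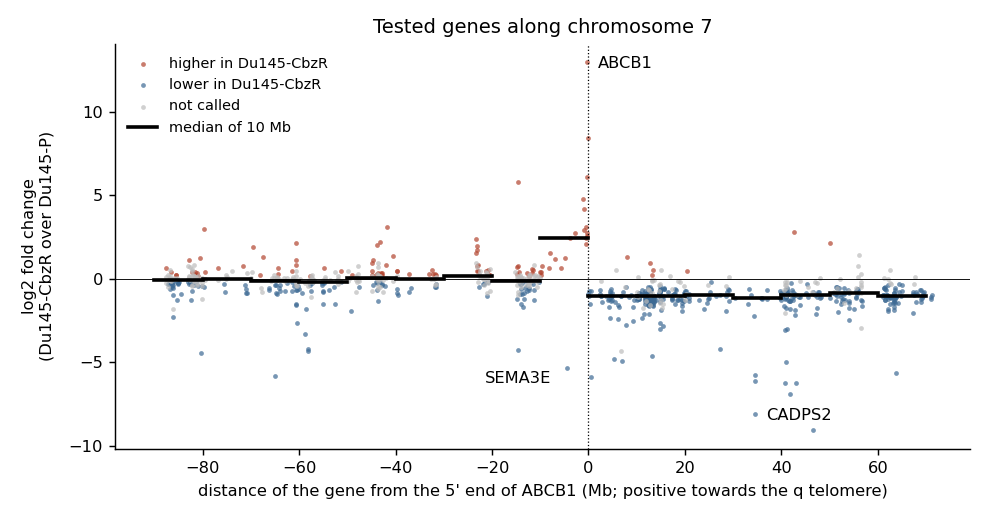
Log2 fold change of Du145-CbzR over Du145-P for each tested gene of chromosome 7 against its distance in Mb from the 5′ end of ABCB1, with red for higher, blue for lower and grey for genes that passed the test in neither direction; black bars are medians of 10 Mb. The median is 2.44 in the 10 Mb before ABCB1 and lies between -0.88 and -1.17 in the steps beyond it.

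The shift was tested between the resistant lines, which share Du145-P as their reference. The median of the distal 7q genes was -0.07 for Du145-DtxR over Du145-P, and in the direct comparison of the resistant lines 324 of the 445 had a lower level in Du145-CbzR and 27 a higher one (72.8% lower, against 31.8% lower and 31.2% higher among all tested genes), with a median of -0.89. CDK6 had 4.35 and 5.26 CPM in Du145-CbzR and 47.1 and 51.0 CPM in Du145-DtxR, against 11.6 and 11.9 CPM in Du145-P. MET had 62.4 and 61.6 CPM in Du145-CbzR, 169.4 and 183.6 CPM in Du145-DtxR and 92.4 and 96.1 CPM in Du145-P. EZH2 had 16.7 and 17.3 CPM in Du145-CbzR, 49.8 and 51.9 CPM in Du145-DtxR and 35.1 and 31.9 CPM in Du145-P. All of these were lower in Du145-CbzR than in either other line, with log2 fold changes over Du145-P of -1.29, -0.60 and -0.98.

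A few distal 7q genes lay far below the median. CADPS2, which encodes a regulator of vesicle exocytosis, had 1 count in each Du145-CbzR library, 27.03 and 26.3 CPM in Du145-DtxR and 10.8 and 9.48 CPM in Du145-P. The ratio of Du145-P to Du145-CbzR was 313.0, with a 95% counting interval of 86.2 to 2590.0. PEG10, an imprinted gene derived from a retrotransposon, had 9.05 and 9.19 CPM in Du145-CbzR and 202.2 and 217.9 CPM in Du145-DtxR, against 279.0 and 265.9 CPM in Du145-P (log2 fold change -4.90 ± 0.07, adjusted p = 1.19e-12, edgeR). The membrane mucin gene MUC3A (-4.63), the tRNA methyltransferase gene METTL2B (-3.04) and CCDC136 (-3.02) followed. METTL2B has a near-identical relative, METTL2A, and its counts are uncertain. PDK4, an inhibitor of pyruvate dehydrogenase, had 4.64 and 4.03 CPM in Du145-CbzR, 3.31 and 2.77 CPM in Du145-DtxR and 32.8 and 26.7 CPM in Du145-P. GNG11, a G protein subunit gene, had 5.65 and 5.26 CPM, 5.58 and 5.94 CPM, and 29.4 and 29.3 CPM in the same order of lines. Unlike most of the arm, PDK4 and GNG11 were low in both resistant lines. AASS (-2.25), an enzyme gene of lysine breakdown, was lower too, as were the unnamed genes ENSG00000267645 (-2.98) and ENSG00000285953 (-2.37). In Du145-DtxR against Du145-P, MUC3A (-3.14), CCDC136 (-1.80), AASS (-0.74) and PEG10 (-0.38) were also lower, while CADPS2 (1.39) and METTL2B (0.38) were higher.

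The 7 distal 7q genes that were higher ran against the arm. CPA4, a secreted carboxypeptidase gene, had 5.58 and 5.81 CPM in Du145-CbzR and 1.36 and 2.51 CPM in Du145-DtxR, against 0.58 and 1.06 CPM in Du145-P (log2 fold change 2.79 ± 0.30, adjusted p = 1.16e-05, edgeR). NRCAM, a cell adhesion gene, had 20.7 and 22.99 CPM against 15.8 and 16.1 CPM in Du145-P, and SRRT, a factor of nuclear RNA processing, had 73.9 and 74.5 CPM against 64.1 and 63.2 CPM. The dynein subunit gene DYNC1I1 (1.28), the histone reader gene ZCWPW1 (0.92) and the pseudogene RPL6P19 (2.16) were higher as well, each at or below 3.21 CPM in Du145-CbzR. With a library left out the count was 4 without replicate 2 of Du145-CbzR and 5 or 6 otherwise.

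Of the members of 41 gene lists, 34 lay on distal 7q, and 30 of these were lower, 1 was higher and 3 passed the test in neither direction (COL1A2, AKR1B10 and CALD1), with a median of -0.95. These counts are near those of the arm as a whole. Lower genes made up 82.0% of all tested distal 7q genes (median -1.016) and 88.6% of the protein-coding ones (median -1.023). The list members spanned many functions. Chromatin regulators were among them. The H3K4 methyltransferase gene KMT2C had 34.5 and 32.9 CPM in Du145-CbzR and 54.8 and 59.4 CPM in Du145-P. KMT2E had 34.2 and 34.4 CPM in Du145-CbzR and 75.2 and 74.6 CPM in Du145-P. The demethylase gene KDM7A (log2 fold change -1.50) and the bromodomain gene TRIM24 (-0.88) were lower too. Of receptors, EPHB4 (-1.38), EPHB6 and FZD1 (-1.04) were lower. STEAP1 had 4.67 and 5.07 CPM in Du145-CbzR and 21.1 and 22.4 CPM in Du145-DtxR, against 7.76 and 7.96 CPM in Du145-P. CYP3A5, a member of the enzyme family that metabolizes taxanes in the liver, had 1.53 and 1.49 CPM against 4.06 and 3.55 CPM in Du145-P. The proteasome ATPase gene PSMC2 (-0.58), the respiratory chain genes NDUFA5 (-1.15), NDUFB2 (-0.55) and ATP5MF (-0.89), the laminin gene LAMB1 (-0.70), CASP2 (-0.71) and the repair gene XRCC2 (-0.76) were lower in the same way.

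Of the 40 other chromosome arms with at least 50 tested genes, 36 had a median log2 fold change within 0.2 of 0. The long arm of chromosome 9 had a median of -0.55, with 391 of 532 genes lower (73.5%) and 17 higher. On 9p the median was 0.03, with 57 of 218 genes higher and 49 lower. Its tip was not level with the rest: from the telomere to DMRT2, 10 of 13 genes were higher and 0 lower (median 1.02). This tip was chosen for description after its values were seen. The median of 9q was -0.06 for Du145-DtxR over Du145-P and -0.52 for Du145-CbzR over Du145-DtxR. On 21q 92 of 182 genes were lower (median -0.38), and on 4p 105 of 200 (median -0.32), with medians of 0.08 and 0.20 in Du145-DtxR. The long arm of chromosome 12 went the other way, with 335 of 709 genes higher (47.2%, against 24.4% of all tested genes), 94 lower and a median of 0.26. On 7p the order of the lines differed, with a median of -0.08 in Du145-CbzR and -0.45 in Du145-DtxR, each over Du145-P.

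**Figure D3:**
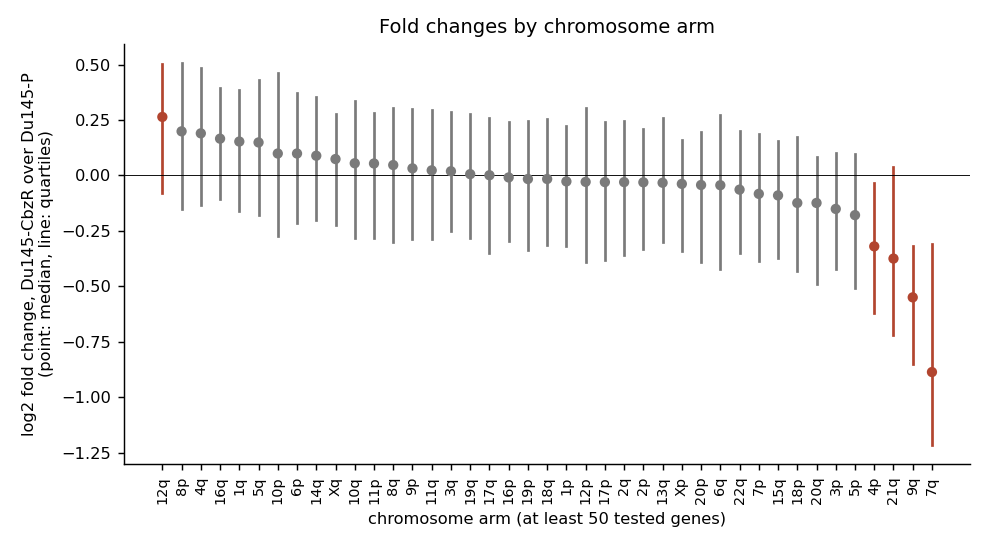
Median (point) and quartiles (line) of the log2 fold change of Du145-CbzR over Du145-P for each chromosome arm with at least 50 tested genes; red marks the arms with a median beyond 0.2 from 0. The arm 7q has the lowest median, -0.89, followed by 9q, 21q and 4p, and 12q has the highest, 0.26.

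Off distal 7q, 679 genes were higher and 1220 lower at the fold limit. The 15 protein-coding genes with the largest rise included growth factor and matrix genes. EREG, the EGF receptor ligand epiregulin, had 112.5 and 107.9 CPM in Du145-CbzR and 31.2 and 28.7 CPM in Du145-DtxR, against 10.7 and 8.22 CPM in Du145-P (log2 fold change 3.54 ± 0.09, adjusted p = 1.51e-10, edgeR). BMP5, a ligand of the BMP family, had 232.0 and 224.8 CPM in Du145-CbzR and 0.15 and 0.11 CPM in Du145-DtxR, against 21.9 and 18.7 CPM in Du145-P, so the resistant lines lay on opposite sides of Du145-P. The same held for the actin nucleator gene FMN2, with 32.4 and 35.9 CPM in Du145-CbzR, 0 and 0.037 CPM in Du145-DtxR and 3.34 and 2.88 CPM in Du145-P, and for CDHR1, with 44.9 and 45.4 CPM, 0.147 and 0.406 CPM, and 4.90 and 4.94 CPM in the same order of lines. The microfibril gene MFAP5 had 28.5 and 31.6 CPM in Du145-CbzR, 0.44 and 0.37 CPM in Du145-DtxR and 2.24 and 1.96 CPM in Du145-P. MMP1, a collagenase (log2 fold change 5.87), and NRG1, an ERBB3 ligand (4.67), were higher in Du145-CbzR than in either other line. SLFN14, a ribonuclease gene, had 13.4 and 10.7 CPM in Du145-CbzR and 0.065 and 0.099 CPM in Du145-P, and CCDC187 had 6.85 and 6.40 CPM and 0.130 and 0.133 CPM. AADAC (3.29), CSRNP3 (3.17), KRTAP2-3 (4.81) and RGPD5 (3.29) completed the group with ABCB1 and ABCB4. KRTAP2-3 was higher still in Du145-DtxR, with 75.9 and 83.9 CPM, against 6.26 and 6.82 CPM in Du145-CbzR and 0.227 and 0.232 CPM in Du145-P. KRTAP2-3 and RGPD5 belong to families of near-identical copies and are uncertain.

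The 15 with the largest fall held many genes with no or almost no counts in Du145-CbzR. BCHE, the butyrylcholinesterase gene, had none in either resistant line and 107.8 and 94.7 CPM in Du145-P, at least 2080.0-fold lower in Du145-CbzR. DNAJC15, a mitochondrial co-chaperone gene, had none in Du145-CbzR, 3.12 and 3.29 CPM in Du145-DtxR and 5.75 and 5.70 CPM in Du145-P, at least 118.0-fold lower. ZNF518B, TINAGL1 and ZNF677 also had no counts in Du145-CbzR and were at least 439.0-fold, 410.0-fold and 108.0-fold lower. CDA, the cytidine deaminase gene that inactivates cytidine analogs, had 0.097 CPM in both Du145-CbzR libraries and 15.2 and 16.9 CPM in Du145-DtxR, against 14.6 and 17.6 CPM in Du145-P (log2 fold change -7.31 ± 0.24, adjusted p = 5.21e-10, edgeR). RPS6KA2, a kinase downstream of ERK, had 0.487 and 0.455 CPM in Du145-CbzR and 79.2 and 75.9 CPM in Du145-DtxR, against 55.6 and 55.5 CPM in Du145-P. BRDT, a bromodomain gene of the testis, had 0.065 and 0 CPM in Du145-CbzR, 20.6 and 22.4 CPM in Du145-DtxR and 17.6 and 18 CPM in Du145-P. SLFN11, TXNIP and FBLN5 each had 1 count over the 2 Du145-CbzR libraries. In Du145-DtxR against Du145-P, TXNIP (log2 fold change -4.89) and FBLN5 (-4.01) were also far lower, and SLFN11 less so (-0.40). BMP7 had 0.032 and 0.130 CPM in Du145-CbzR and 0 and 0.037 CPM in Du145-DtxR, against 13.8 and 14.6 CPM in Du145-P. SELENBP1, a selenium-binding protein gene, had 1 count in each Du145-CbzR library and 6.13 and 6.47 CPM in Du145-P. The ratio of Du145-P to Du145-CbzR was 194.0 (95% counting interval 53.3 to 1610.0). SELENBP1 was low in Du145-DtxR as well, with 0.037 and 0.148 CPM. In all, 71 DEGs had no counts in either Du145-CbzR library and 22 had none in either Du145-P library, of which 29 and 6 averaged 1 CPM or more in the other line.

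A run of zinc finger genes on 19q was chosen for description after its values were seen. From ZNF836 to ZNF677 (chromosome 19, 52153864 to 53254898) 22 tested genes have a ZNF symbol, pseudogenes and an antisense gene included, and 16 of them were lower in Du145-CbzR, all beyond the fold limit, and none was higher (median log2 fold change -2.78). Among the 224 other tested ZNF genes of chromosome 19, 21 were lower and 58 higher, with a median of 0.10. Of the same 22 genes Du145-DtxR also had 13 lower and 2 higher, against Du145-P (median -0.90), and 9 were lower and 6 higher in Du145-CbzR than in Du145-DtxR. ZNF83 had 0.16 and 0.29 CPM in Du145-CbzR and 75.5 and 73.9 CPM in Du145-DtxR, against 40.1 and 39.3 CPM in Du145-P. ZNF320 had 0.130 and 0.097 CPM in Du145-CbzR and 0.037 CPM in both Du145-DtxR libraries, against 6.59 and 5.44 CPM in Du145-P, so it was low in both resistant lines. Between the lower genes ZNF766, ZNF480, ZNF28, ZNF468 and ZNF160, and the antisense gene ZNF528-AS1, passed the test in neither direction; ZNF160 had 19.6 and 16.9 CPM against 18.8 and 18.3 CPM. These genes resemble each other in sequence, and reads can be split between them. Most zinc finger proteins of this class carry a KRAB domain and repress transcription, including that of transposable elements.

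**Figure D4:**
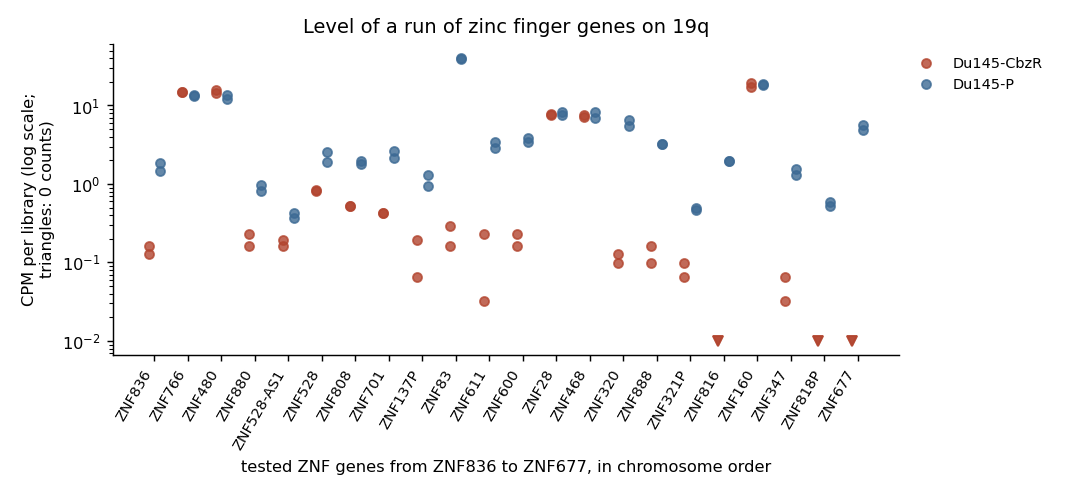
CPM on a log axis of the tested ZNF genes from ZNF836 to ZNF677 in chromosome order, with each point 1 library of Du145-CbzR (left, red) or Du145-P (right, blue) and triangles for libraries with 0 counts. In 16 of 22 genes the red points lie below the blue ones beyond the fold limit, with genes such as ZNF28 and ZNF160 at one level between them.

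The gene lists are described by how many tested members were higher or lower, beside 24.4% and 26.3% of all tested genes and a median of -0.01. Of 27 ABC transporters, a list not limited to carriers of taxanes, 7 were higher and 10 lower (median -0.08). Besides ABCB1 and ABCB4, ABCC2 rose by 1.03 on the log2 scale. ABCG2, the breast cancer resistance protein, had 1.27 and 1.95 CPM against 7.69 and 7.10 CPM, and ABCC1 (-0.31) and ABCA1 (-1.91) were lower. Of 10 taxane uptake and metabolism genes, 2 were higher and 6 lower (-0.28). Tubulins, the family that includes the drug's target beta-tubulin, went the other way, with 11 of 17 higher and 2 lower (TUBA4A and TUBE1, median 0.57). TUBB had 1811 and 1857 CPM in Du145-CbzR and 850.9 and 912.0 CPM in Du145-P, and TUBB3 had 121.2 and 126.7 CPM and 64.2 and 64.1 CPM. TUBA1C (0.89) and TUBB2A (1.24) were higher too, although TUBB2A and TUBB2B are near-identical and their split is uncertain. Du145-CbzR and Du145-DtxR differed little in TUBB (0.09 on the log2 scale, adjusted p = 0.127, edgeR). Among microtubule regulators 19 of 40 were higher, such as MAP1B (1.10), and 11 lower (0.14).

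Of 38 proteasome genes 29 were higher and 4 lower (median 0.35), the lower ones being PSMB8 and PSMB9 of the immunoproteasome, PSMB1 and, on distal 7q, PSMC2. Of 27 cytosolic heat shock genes 17 were higher and 4 lower (0.33). HSP90AA1 had 2772 and 2716 CPM in Du145-CbzR and 999.9 and 995.5 CPM in Du145-P, and HSPA8 had 841.8 and 859.3 CPM against 364.8 and 371.1 CPM, whereas HSPH1 had 14.02 and 13.5 CPM against 38.1 and 33.2 CPM. Of 72 nuclear genes of the respiratory chain 33 were higher and 10 lower (0.14), 3 of the lower ones on distal 7q, and ATP5PO, on 21q, had 30.2 and 32.8 CPM against 82.5 and 88.4 CPM. None of 15 transcripts of the mitochondrial genome was higher and 9 were lower (-0.26). Glycolysis and hypoxia genes had 20 of 41 higher and 13 lower (0.08), with ADM (1.20) and the transporter gene SLC16A3 (-2.28) as opposite examples. Metallothioneins had 1 of 8 higher, none without replicate 1 of Du145-P and 2 without its replicate 2, and 3 lower (-0.25), and these near-identical genes are uncertain. Of 41 fatty acid and lipid genes 7 were higher, FASN by 1.12, and 23 lower (-0.16). NRF2 targets had 10 of 32 higher and 10 lower (-0.02). Of 8 thioredoxin-interacting arrestin genes 5 were lower and 1 higher (-0.70), or 2 higher without replicate 2 of Du145-P.

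Of 30 epithelial identity genes 16 were lower and 7 higher (median -0.51). Besides CDH1, JUP, the plakoglobin gene, had 57.8 and 58.7 CPM in Du145-CbzR and 284.8 and 304.2 CPM in Du145-P, and CLDN7 had 0.065 and 0.032 CPM against 2.95 and 2.85 CPM. Mesenchymal genes had 6 of 15 higher, such as TAGLN (1.40), and 6 lower, such as S100A4 (-2.81; median -0.18), but 3 lower without replicate 1 of Du145-CbzR and 4 with any other of these libraries left out. Keratins had 5 of 10 higher and 4 lower (0.43). Collagens and fibril assembly genes had 8 of 36 higher, COL5A1 by 2.00, and 19 lower (-0.47). Integrins and laminins had 8 of 30 higher and 16 lower (-0.29), and matrix proteases and inhibitors 6 of 32 higher and 19 lower (-0.32). MMP14 had 1.20 and 1.36 CPM in Du145-CbzR and 18.3 and 19.99 CPM in Du145-P. Of 9 connexins and pannexins 5 were higher and 1 lower (0.48), with none lower without replicate 1 of Du145-CbzR or replicate 2 of Du145-P. Of 10 prostate lineage genes none was higher, or 1 without replicate 2 of Du145-P, and 6 were lower (-0.52), 3 of them STEAP genes of distal 7q.

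Of 18 ERBB receptors and ligands 5 were higher and 6 lower (median -0.03). AREG, amphiregulin, had 39.78 and 38.4 CPM in Du145-CbzR and 6.23 and 6.57 CPM in Du145-P, alongside EREG and NRG1, while EGF (-1.52), TGFA (-1.39) and the feedback gene LRIG1 (-1.03) were lower. ERK output genes had 13 of 27 higher, EGR1 by 1.73 and SPRY2 by 0.99, and 8 lower, DUSP4 among them (-2.08; median 0.17). AP-1 and immediate-early genes had 9 of 25 higher and 10 lower (-0.08), with JUN higher (1.19) and FOS lower (-0.83). YAP and TEAD targets had 16 of 30 higher and 5 lower (0.19), or 15 and 3 without replicate 1 of Du145-CbzR, and IGFBP3 had 119.7 and 116.3 CPM against 14.1 and 13.5 CPM. Of 45 receptor kinases and ligands 10 were higher and 23 lower (-0.26), IGF1R by -1.62. Notch pathway genes had 3 of 30 higher and 16 lower (-0.50). NOTCH1, on 9q, had 7.53 and 8.38 CPM in Du145-CbzR and 7.64 and 6.90 CPM in Du145-DtxR, against 24.4 and 24.97 CPM in Du145-P, and JAG1 had 0.36 and 0.42 CPM in Du145-CbzR against 2.89 and 2.52 CPM in Du145-P. TGF-beta and BMP genes had 13 of 45 higher and 18 lower (-0.18), and WNT genes 13 of 46 higher and 15 lower (0.08), with DKK1 higher (1.12) and WNT5A lower (-3.86).

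Of 59 interferon-stimulated genes 40 were lower and 5 higher (median -0.53), with 33 lower and 2 higher without replicate 2 of Du145-CbzR and 3 higher without either Du145-P library. STING1, the adaptor of cytosolic DNA sensing, had 6.98 and 6.63 CPM in Du145-CbzR and 31.6 and 36.1 CPM in Du145-P. Of the 5 tested Schlafen genes SLFN5, SLFN11, SLFN12 and SLFN13 were lower and SLFN14 higher. SLFN13 had 2.04 and 1.56 CPM in Du145-CbzR and 31.4 and 31.9 CPM in Du145-DtxR, against 38.5 and 36.5 CPM in Du145-P. MHC class I genes had 7 of 25 higher and 11 lower (-0.11), and CD274, which encodes PD-L1, had 10.0 and 9.06 CPM in Du145-CbzR and 18.4 and 21.3 CPM in Du145-DtxR, against 2.11 and 1.72 CPM in Du145-P. Chemokines and cytokines had 7 of 24 higher and 7 lower (0.02), or 4 and 6 without replicate 1 of Du145-P.

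BCL2 family genes had 8 of 19 higher, MCL1 by 0.58, and 4 lower, the proapoptotic genes BCL2L11 and BMF (-0.91) with BCL2 (-0.95) and BCL2L10 (-1.38; list median 0.09). Without replicate 1 of Du145-CbzR 5 of them were higher, and without replicate 1 of Du145-P 4. Death receptors and caspases had 9 of 33 higher and 10 lower (0.04), and GSDMD, the pore-forming protein of pyroptosis, had 4.32 and 3.93 CPM against 30.4 and 31.8 CPM. DNA repair genes had 18 of 65 higher and 12 lower (0.06), with MSH3 lower (-1.73), but 13 higher and 14 lower without replicate 2 of Du145-P. G1 cyclins and CDK inhibitors had 11 of 29 higher, CCND3 by 1.01, and 10 lower (-0.05), or 7 and 8 without replicate 2 of Du145-CbzR. Histone and DNA methylation genes had 25 of 63 higher and 14 lower (0.08), or 16 and 11 without replicate 2 of Du145-CbzR. Of these genes KMT2C, KMT2E, KDM7A and EZH2 lie on distal 7q. Histone acetylation and bromodomain genes had 12 of 47 higher, HDAC9 by 1.87, and 18 lower (-0.03). HOX genes had 7 of 31 higher and 9 lower (-0.05), and cancer-testis genes 2 of 11 higher and 4 lower (-0.17), or 2 and 2 without replicate 2 of Du145-CbzR.

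**Figure D5:**
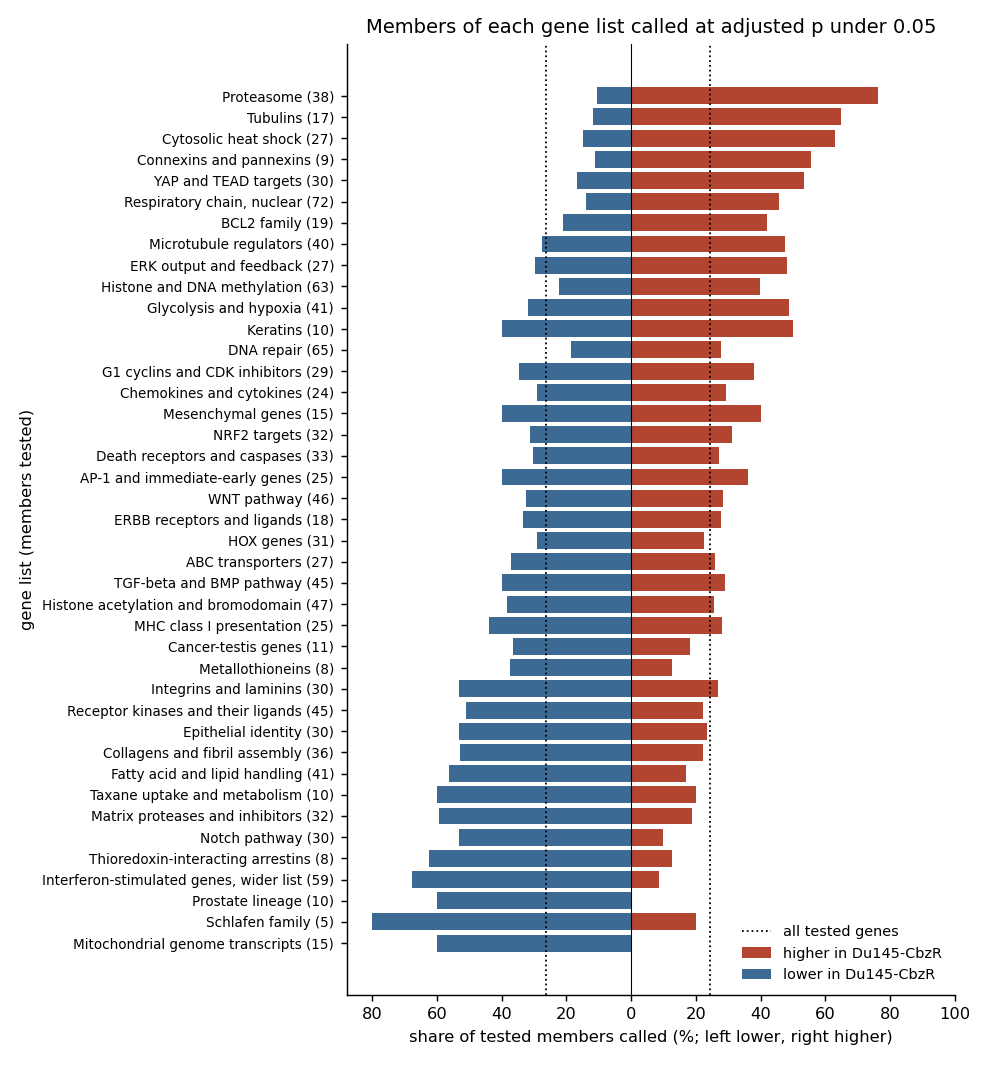
Share of the tested members of each gene list that were higher (red, right) or lower (blue, left) in Du145-CbzR than in Du145-P at an adjusted p under 0.05; dotted lines mark 24.4% and 26.3% of all tested genes. Proteasome genes and tubulins have the largest excess of higher members, and the mitochondrial genome, Schlafen and prostate lineage lists the largest excess of lower ones.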

How the data were processed

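RNA was sequenced from 12 libraries, of which the 6 of Du145-CbzR, Du145-DtxR and Du145-P were used; the siRNA libraries were not used here. Per the labels and the paper's methods, the authors aligned reads with STAR to the GENCODE transcriptome on GRCh38 and quantified them with Salmon; versions are not given in the sources used here. The deposited values are named as TPM, but hold estimated counts that the authors summed per gene, since columns have unequal totals (27512422 to 30593573) and 58.4% of values above 0 are whole.

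The 44 pseudoautosomal Y rows were merged into the X rows of the same genes. Counts were rounded, filtered with filterByExpr, scaled by TMM and tested with edgeR 4.0.16 (R 4.3.3) in 1 fit of 6 libraries with 3 residual degrees of freedom. Standard errors are the log2 fold change over the square root of F. GENCODE 44 (GRCh38) gave the coordinates, and 52342 identifiers have its version number. For a group without counts, bounds assume 3 counts in that group, and bounds and intervals hold counting error alone.

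The members, gene lists and tests were chosen with earlier results of these data known. Named are ABCB1 and its tested neighbours within 2 Mb, the 15 largest changes each way off distal 7q and up to 10 each way on it (protein-coding DEGs, 5 CPM in the higher group, no overlap), up to 4 members per list, direction exceptions and list members on distal 7q. Other genes, such as those of the 10 Mb before ABCB1, the zinc finger run and some list members, were named after their values were seen, and a few genes that the rule names are not reported here.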

Additional observations from a re-analysis of the deposited data

Results flagged for a closer look

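Of 41 genes with the largest changes on and off distal 7q, 13 were called in opposite directions in the resistant lines, each against Du145-P. The 41 were chosen for their change in Du145-CbzR, both comparisons share the Du145-P libraries, and opposite calls make the lines differ, so the differences are a description. Among all 18218 tested genes 6762 were called in both resistant lines, and 1874 (10.3% of those tested) had opposite calls. The 41 were all called in Du145-CbzR, so the share over all tested genes is not a like background for them. Differences are Du145-CbzR minus Du145-DtxR on the log2 scale. Above Du145-P in Du145-CbzR and below it in Du145-DtxR were SLFN14 (difference 11.47), CCDC187 (8.19), MFAP5 (6.20), BMP5 (10.74), FMN2 (10.56), AADAC (10.53) and CDHR1 (7.33). Below Du145-P in Du145-CbzR and above it in Du145-DtxR were ZNF518B (-12.66), BRDT (-9.20), ZNF83 (-8.33), RPS6KA2 (-7.35), CADPS2 (-9.51) and METTL2B (-3.42). Where a line had no or few counts, as in Du145-DtxR for SLFN14 and AADAC and in Du145-CbzR for ZNF518B, the fitted difference depends on the prior count and is no bound.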

How the results depend on the processing

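With each library left out, so that the lone library of its line is assumed to vary like those of the other lines, 578 to 644 genes were higher and 1284 to 1323 lower, 335 to 344 distal 7q genes were lower and 4 to 6 higher, and the distal 7q median was -1.02 to -0.995. Requiring a mean of 1 CPM left 406 genes higher, 405 of them off distal 7q, and 789 lower off distal 7q, with fewer genes tested (14896). Without the fold limit 4454 were higher and 4790 lower. From band 7q31 to the telomere, a smaller set of 247 genes, 202 were lower and 3 higher. The distal 7q median stayed between -1.03 and -0.976 under the other filters, normalizations, DESeq2 (511 higher and 1163 lower genes) and a fit without Du145-DtxR.

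With replicate number as a term (replicate block) 654 genes were higher and 1391 lower, and 362 distal 7q genes were lower; same-numbered libraries did not deviate together (r = -0.0212 to 0.0848 between lines). Of 2709 values of 227 named genes under the alternatives, 17 lost the call and none reversed. Chosen after seeing the data, the counts of lists with more lower than higher members (20 to 24 of 41) and of DEGs between the resistant lines (2652 to 3881) were recomputed, as were the counts within each list with 1 library left out. The balance of lists near even, such as death receptors and caspases or AP-1 genes, turned under some alternatives, and that of DNA repair genes turned to 13 higher and 14 lower without replicate 2 of Du145-P. Genes below 1 CPM rest on few counts, and 2 libraries per line limit the test.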
